A study of Sus scrofa with 30 samples.

Results

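The proteasome subunits and the ubiquitin conjugating enzymes (E2s) were followed in arteries of Rapacz HC swine. A gene was taken in when at least 1 probe set of the array carried its symbol alone and the symbol began with PSMA to PSMG or with UBE2. UBE2C and UBE2QL1 were left out by that rule. This gave 62 genes of the 6054 that had a probe set of their own, 40 with PSM symbols and 22 with UBE2 symbols. Where a gene had several probe sets, as 15 of the 62 did, the brightest on average across the 30 arrays stood for it. Values are log2 signals, so a difference of 1 is a doubling, and ± beside a log2 fold change is a standard error.

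Proteins are marked for destruction when an E1 enzyme activates ubiquitin, an E2 carries it and an E3 ligase passes it to the substrate. The 26S proteasome then unfolds and cuts the marked protein. Its 20S core is a barrel of alpha rings around beta rings, whose subunits PSMB5, PSMB6 and PSMB7 carry the cutting sites, and its 19S cap recognises ubiquitin and unfolds the substrate. Cells exposed to interferon gamma, and immune cells in general, replace these subunits with PSMB8, PSMB9 and PSMB10 to form the immunoproteasome, which produces peptides for antigen presentation.

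The Rapacz HC strain carries inherited high blood cholesterol, and all 15 pigs belonged to it and ate a normal diet, so no group served as a normal-cholesterol control. The brachial artery of the forelimb and the femoral artery of the hindlimb were taken from each pig, and RNA was measured on 1 array for each artery. There were 4 pigs aged 1 week (9481, 9483, 9485 and 9487), 6 aged 1 year (9175, 9176, 9188, 9192, 9193 and 9237) and 5 aged 2 years (9006, 9007, 9994, 9995 and 9997). Piglet RNA came from a Macherey Nagel column alone, while RNA of both older ages went through CsCl ultracentrifugation before the column, so age and extraction cannot be told apart in any comparison with 1 week. The labels do not give the sex of the pigs.

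A further label names whole blood as the cell type, although titles and design name arteries. The smooth muscle gene ACTA2 lay between 14.6 and 14.8 on every array and ranked in percentile 99.98 of all probe sets by its median, while the red cell genes ALAS2 and HBB had medians of 6.35 and 9.56. Array medians lay between 8.05 and 8.15. The 2-year pigs 9994, 9995 and 9997 stood apart from the other 12 in immune cell markers and in some other cell lists. The mean over 14 measured lymphocyte markers, of 31 listed, was 7.38, 7.30 and 7.43 in these pigs, 6.13 and 6.12 in pigs 9006 and 9007, 5.97 to 6.06 at 1 year and 5.90 to 6.04 at 1 week. The T cell gene CD3E had levels of 8.05, 7.91 and 7.48 in these pigs and at most 5.86 in any other pig. The counts of members between ages are therefore given with and without them. These are bulk tissues, in which fewer cells of a type and less RNA per cell cannot be told apart.

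The probe set levels spanned a wide range within each role. In the alpha ring the mean over all arrays was 9.60 for PSMA5 and 11.88 for PSMA7, and in the constitutive beta ring it was 9.15 for PSMB3 and 11.72 for PSMB4. The immunoproteasome subunits PSMB10 and PSMB8 had means of 8.35 and 8.44. The E2 means ran from 7.48 for UBE2W to 12.19 for UBE2Q1. Probe sets bind with different strength, so these levels describe each gene and set no gene above another. PSMB9, PSMC4, PSMD7 and UBE2L6 were not analysed here, since no probe set carried their symbol alone.

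Between 1 year and 2 years, with the same extraction at both ages, the proteasome genes moved mostly one way and the E2 genes did not. The number in the sample title, whose meaning is not given, was higher on every 2-year array than on every 1-year array. Age and whatever goes with that number cannot be told apart in this comparison. Of the 62 genes 21 were higher at 2 years, against 12.9% of all probe sets, and 2 were lower, against 19.8%, with 32.7% called in either direction (limma on pig means, adjusted p under 0.05 over 19362 probe sets). Members are named genes, each shown by its brightest probe set. Over the 6054 named genes shown in that way 20.7% were higher, 16.4% lower and 37.1% called in either direction. The share of members called in either direction was also 37.1%. The median log2 fold change was 0.10 over the members, 0.02 over the named genes and -0.04 over all probe sets. Of the 21 that rose 20 were among the 40 proteasome genes, of which 0 were lower in this limma fit (0 at an unadjusted p under 0.05, and 22 higher). Among the 22 UBE2 genes UBE2N rose, UBE2O and UBE2R2 fell, and 19 did not pass the test. Within these 19, a dimmer probe set was called higher for UBE2V1, UBE2D2 and UBE2E3 (0.41, 0.20 and 0.27) and lower for UBE2L3 (-0.28). A dimmer probe set of the proteasome gene PSMF1 was called lower (-0.22). The calls thus depend in part on the probe set chosen. In 16 members every 2-year pig lay above every 1-year pig, which 6.11% of all probe sets did, and in 2 members every 2-year pig lay below, which 11.2% of all probe sets did.

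**Figure D1:**
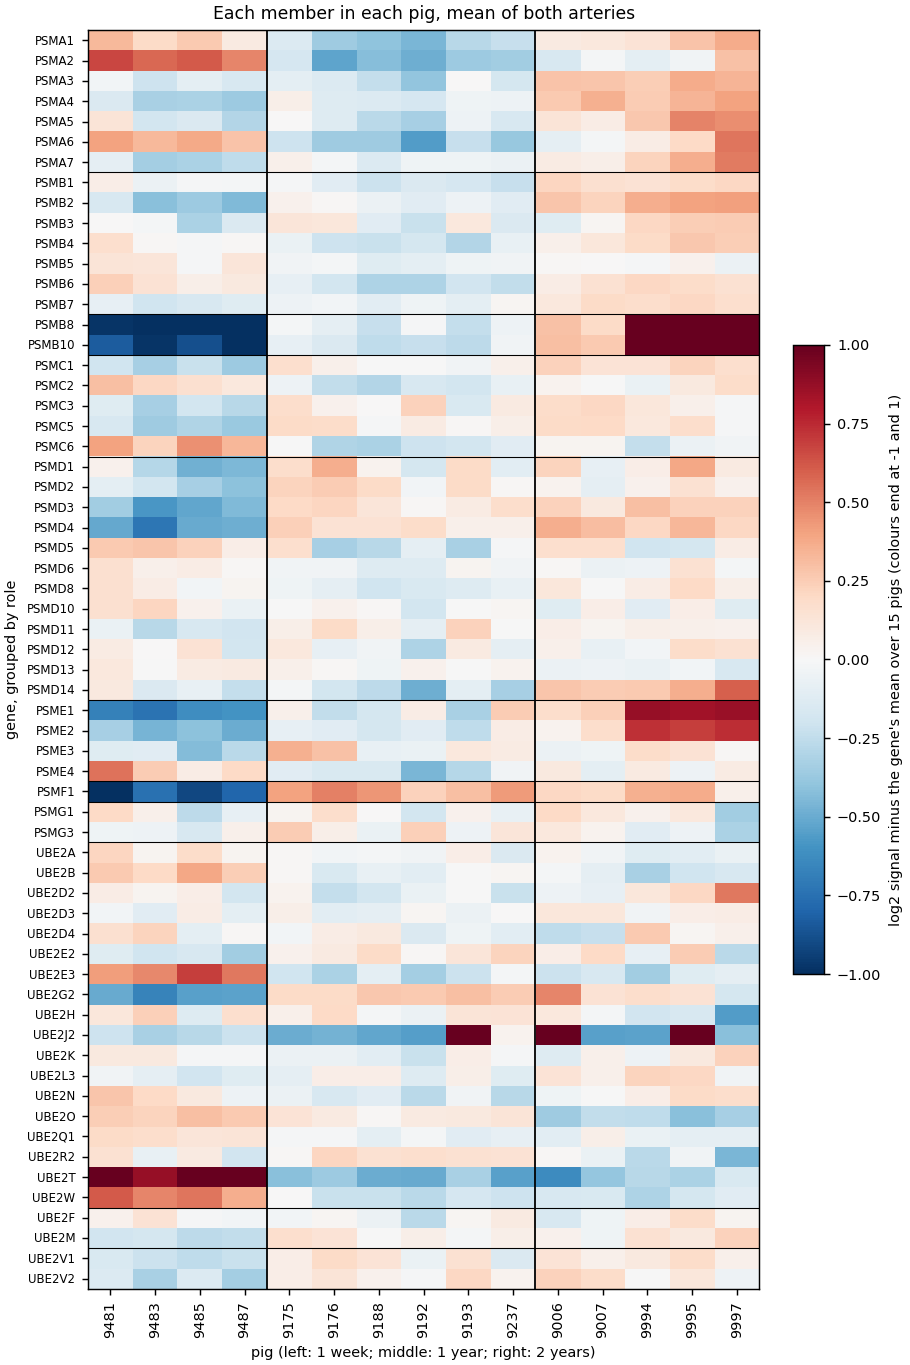
Each row is a member gene, grouped by role, and each column a pig, grouped by age; the colour is the mean log2 signal of both arteries minus the gene's mean over the 15 pigs, with colours ending at -1 and 1. The rows of PSMB8, PSMB10, PSME1 and PSME2 are highest in the 2-year pigs 9994, 9995 and 9997. The alpha ring rows PSMA1, PSMA2 and PSMA3 are raised in all 5 pigs of 2 years over those of 1 year. PSMA7 is spread at 2 years and highest in pigs 9994, 9995 and 9997, and UBE2J2 is high in pigs 9193, 9006 and 9995.

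All 7 measured subunits of the alpha ring, which forms the ends of the core and its gate, rose from 1 year to 2 years. The rises were 0.29 to 0.51 with a median of 0.44, while 12.9% of all probe sets were higher in that step. PSMA1 had pig means of 9.65 to 9.97 at 1 year (median 9.79, n = 6) and of 10.20, 10.21, 10.25, 10.39 and 10.48 at 2 years. No 2-year pig overlapped the 1-year pigs, and the difference was 0.51 ± 0.07 (limma, adjusted p = 0.000249). PSMA3 lay between 10.93 and 11.32 at 1 year (median 11.17) and at 11.61, 11.60, 11.57, 11.69 and 11.66 at 2 years, a difference of 0.48 ± 0.06 (limma, adjusted p = 0.000172). The groups of PSMA3 did not overlap, and its 5 pigs of 2 years lay within a narrow range. PSMA7 rose by 0.29 ± 0.08 (limma, adjusted p = 0.0134), and here the 2-year pigs were spread, from 11.96 and 11.94 in pigs 9006 and 9007 to 12.10, 12.24 and 12.40 in pigs 9994, 9995 and 9997.

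Of the 7 measured subunits of the constitutive beta ring, 5 rose from 1 year to 2 years, against 12.9% of all probe sets. These were PSMB1, PSMB2, PSMB4, PSMB6 and PSMB7 (by 0.22 to 0.38), and PSMB3 and PSMB5 did not pass the test. PSMB6, which carries the caspase-like site, lay between 10.81 and 11.04 at 1 year (median 10.90) and at 11.20, 11.27, 11.33, 11.30 and 11.27 at 2 years. The ages did not overlap and differed by 0.38 ± 0.05 (limma, adjusted p = 0.000264). PSMB7, which carries the trypsin-like site, lay between 11.01 and 11.13 at 1 year and between 11.22 and 11.32 at 2 years, a difference of 0.22 ± 0.04 (limma, adjusted p = 0.00176). PSMB5, which carries the chymotrypsin-like site, had levels of 11.41 to 11.51 at 1 year and 11.47 to 11.57 at 2 years. The PSMB5 pigs overlapped, with a difference of 0.05 ± 0.04 (limma, adjusted p = 0.369).

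The immunoproteasome subunits PSMB8 and PSMB10 had the largest differences of the 62 genes from 1 year to 2 years. PSMB8, which takes the place of PSMB5, had pig means of 7.46, 7.21, 7.13 and 7.16 at 1 week, 8.20 to 8.42 at 1 year (median 8.37, n = 6), and 8.73, 8.63, 10.18, 9.86 and 10.22 at 2 years in the order of pigs given above. The 3 ages did not overlap, and the 2-year pigs fell into 9006 and 9007 just above the 1-year pigs and the other 3 well above them. PSMB8 was 2.13-fold higher at 1 year than at 1 week (log2 1.09 ± 0.27, limma, adjusted p = 0.00396) and 2.29-fold higher at 2 years than at 1 year (log2 1.19 ± 0.25, adjusted p = 0.00294). PSMB10, which takes the place of PSMB7, had pig means of 7.52, 7.37, 7.47 and 7.31 at 1 week, 8.08 to 8.31 at 1 year (median 8.16) and 8.65, 8.61, 9.65, 9.56 and 10.01 at 2 years. Its ages did not overlap either, with log2 fold changes of 0.76 ± 0.22 for 1 year against 1 week (limma, adjusted p = 0.0103) and 1.12 ± 0.21 for 2 years against 1 year (adjusted p = 0.00122).

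**Figure D2:**
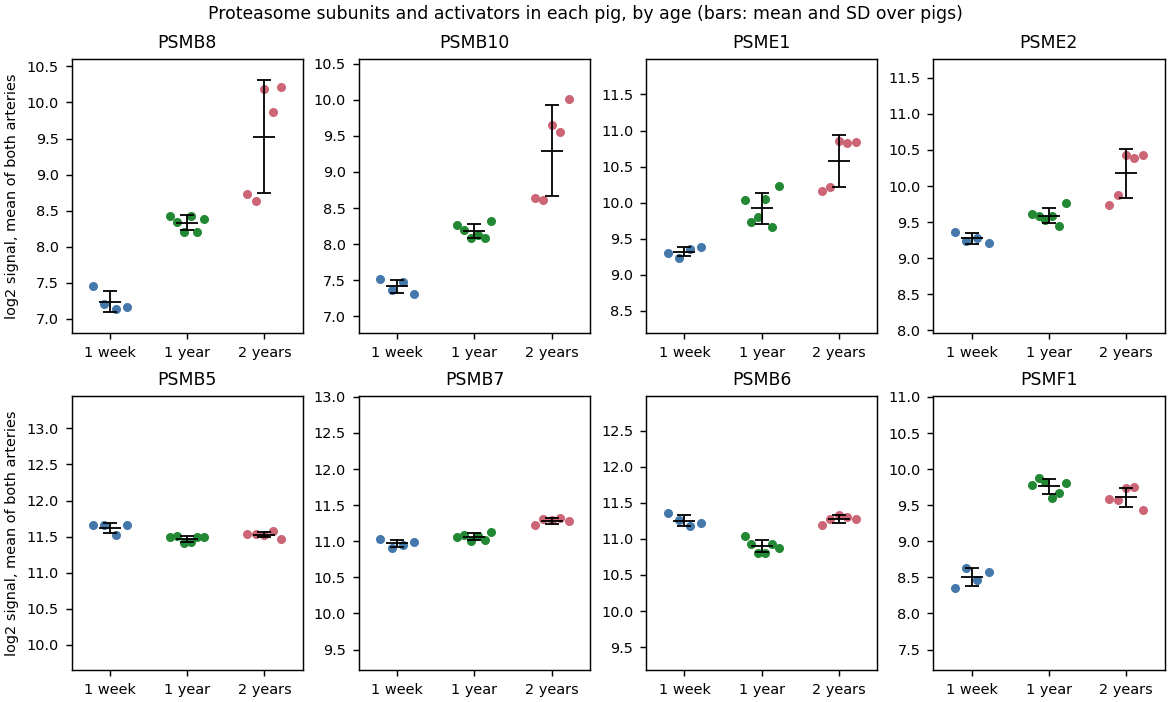
Points are the mean log2 signal of both arteries in each pig, by age, with bars for mean and SD over 4, 6 and 5 pigs; every panel spans the same number of log2 units. PSMB8 and PSMB10 separate the 3 ages and spread at 2 years (SD 0.78 and 0.63), whereas their partners PSMB5 and PSMB7 stay within narrow ranges (SD 0.04 at 2 years for each).

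The change of each immunoproteasome subunit was set against that of its constitutive partner within pigs. PSMB8 minus PSMB5 was greater by 1.24 at 1 year than at 1 week, and by 1.14 at 2 years than at 1 year (exact permutation tests over pigs, two-sided, p = 0.00476 and 0.00216, each the smallest the test can give, adjusted over 8 tests p = 0.00952 and 0.00866, n = 4, 6 and 5 pigs). PSMB10 minus PSMB7 was greater by 0.67 and by 0.90 in the same comparisons, with the same exact permutation p values. Without pigs 9994, 9995 and 9997 the 2-year minus 1-year values were 0.28 for PSMB8 minus PSMB5 and 0.25 for PSMB10 minus PSMB7 (exact permutation tests, adjusted p = 0.0714 for both, smallest possible unadjusted p 0.0357). Between the arteries the differences of 0.09 ± 0.31 and -0.07 ± 0.22 (SD over 15 pigs) were not called (exact permutation tests, adjusted p = 0.296 and 0.287).

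Without the 3 pigs, 13 members were called higher at 2 years than at 1 year, against 6.76% of all probe sets, and 1 lower (UBE2O), against 9.85% of all probe sets. All 13 were among the 21 called with every pig. They comprised 5 of 7 alpha subunits, 5 of 7 constitutive beta subunits, PSMB8, PSMB10 and the 19S deubiquitinase PSMD14. PSMB8 then had a log2 fold change of 0.35 ± 0.10 (limma, adjusted p = 0.0268) in place of 1.19, and PSMB10 one of 0.45 ± 0.08 (adjusted p = 0.00403) in place of 1.12. PSMA1, PSMB1 and PSMB6 had 0.41, 0.34 and 0.33 in place of 0.51, 0.33 and 0.38. The median was 0.29 over the 7 alpha subunits in place of 0.44, and 0.26 over the 7 constitutive beta subunits in place of 0.33. The calls of PSMA5, PSMA7, PSMC1, PSMC2, PSMD8, PSME1, PSME2, UBE2N and UBE2R2 were lost. The lymphocyte markers and the immunoproteasome subunits stood highest in the same 3 pigs. The mean over 12 measured macrophage and monocyte markers, of 20 listed, was also highest there, at 10.14, 10.15 and 11.37, against 7.62 to 8.57 in the other 12 pigs. Of these markers 9 were higher at 2 years than at 1 year (median 1.66), against 12.9% of all probe sets. Without the 3 pigs 4 were higher (median 0.24), against 6.76%. The part of these cells in the member levels was not tested. With brachial arrays alone 16 members were called higher, against 7.33% of all probe sets, and with femoral arrays alone 14, against 11.5%, every one of them among the 21.

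**Figure D3:**
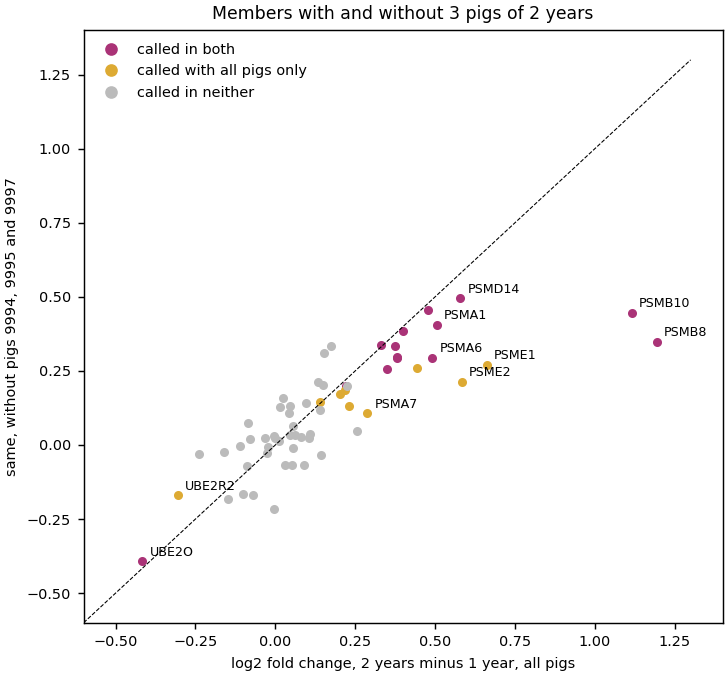
Each point is a member, with the log2 fold change of 2 years against 1 year over all pigs on the horizontal axis and without pigs 9994, 9995 and 9997 on the vertical axis; the dashed line marks equal values. PSMB8 (1.19 and 0.35) and PSMB10 (1.12 and 0.45) lie far below the line, and PSMA1 (0.51 and 0.41) lies nearer it. The medians were 0.44 and 0.29 for the alpha ring and 0.33 and 0.26 for the constitutive beta ring.

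Among the RNA control probe sets, those of actin and GAPDH also differed between these ages. The actin signal at the 3′ end exceeded that at the 5′ end by 0.62 to 0.98 on the 10 arrays of 2 years and by 0.33 to 0.58 on the 12 arrays of 1 year. For GAPDH the order was the other way, with 0.70 to 1.01 at 2 years and 0.96 to 1.31 at 1 year. For EF1A the range of 0.19 to 0.29 at 2 years lay within that of 0.08 to 0.39 at 1 year. The part of RNA quality in the member differences was not tested.

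Of the 4 measured activator genes, PSME1 and PSME2 rose from 1 year to 2 years, against 12.9% of all probe sets. PSME3 and PSME4 did not pass the test. PSME1 and PSME2 form the PA28 ring that opens the core and favours peptide release. PSME1 had pig means of 9.24 to 9.38 at 1 week, 9.66 to 10.23 at 1 year (median 9.92) and 10.16, 10.22, 10.86, 10.82 and 10.85 at 2 years. Pigs 9006 and 9007 lay among the 1-year pigs and the other 3 above them, with a log2 fold change of 0.66 ± 0.14 between 2 years and 1 year (limma, adjusted p = 0.00309) and of 0.27 ± 0.13 without those 3 (adjusted p = 0.166). PSME2 went from 9.45 to 9.77 at 1 year to 9.73, 9.87, 10.43, 10.39 and 10.44 at 2 years (0.58 ± 0.12, limma, adjusted p = 0.0024), with 0.21 ± 0.08 without the 3 pigs (adjusted p = 0.0964). PSME3, the nuclear activator PA28 gamma, and PSME4, the activator PA200, overlapped between 1 year and 2 years, with -0.07 ± 0.09 and 0.22 ± 0.09 (limma, adjusted p = 0.583 and 0.0614).

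PSMF1 encodes PI31, which binds the core and inhibits it in vitro, and it had the largest rise of the 62 genes from 1 week to 1 year. Its pig means were 8.35, 8.63, 8.47 and 8.58 at 1 week, 9.61 to 9.88 at 1 year (median 9.79) and 9.59, 9.57, 9.73, 9.75 and 9.43 at 2 years. Every older pig lay above every piglet, and both older ages overlapped. The log2 fold change was 1.25 ± 0.08 for 1 year against 1 week (limma, adjusted p = 1.06e-08) and 1.10 ± 0.08 for 2 years against 1 week (adjusted p = 6.4e-08). A second PSMF1 probe set was called in both comparisons too, at 1.11 and 0.90, and was also called lower at 2 years than at 1 year (-0.22, limma, adjusted p = 0.0191).

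From 1 week to 1 year 20 members rose and 19 fell, against 24.7% of all probe sets higher, 20.2% lower and 44.9% in either direction. Over the named genes 26.9% were higher, 22.5% lower and 49.4% called in either direction. In 17 members every 1-year pig lay above every piglet, against 21.2% of all probe sets, and in 16 below, against 17.5%. Without pigs 9994, 9995 and 9997 in the fit 22 members were higher, against 28.9%, and 20 lower, against 23.3%. Brachial arrays alone gave 19 higher and 14 lower, against 20.4% and 16.8%, and femoral arrays alone 13 higher and 17 lower, against 20.4% and 17.1%. The median was -0.03 over the members and 0.03 over all probe sets, and that of the members was just above 0 in each artery alone (0.0049 and 0.0018) and with the mean over a gene's probe sets (0.024). The core subunits split, since PSMA2, PSMA6 and PSMA1 fell by 0.97, 0.70 and 0.52 while PSMA4 rose by 0.21 and PSMB2 by 0.30. PSMA2 had pig means of 11.30, 11.21, 11.25 and 11.12 at 1 week and 10.10 to 10.46 at 1 year, with no overlap (-0.97 ± 0.09, limma, adjusted p = 5.12e-07). It was 10.47, 10.61, 10.54, 10.60 and 10.92 at 2 years, between the other ages. There were 9 members that fell in the first step and rose in the second. They were the core subunits PSMA1, PSMA2, PSMA6, PSMB1, PSMB4 and PSMB6, and PSMC2, PSMD8 and UBE2N. The share of all probe sets with that path was not counted, so the 9 cannot be set against it. Both steps use the same 1-year pigs, so a low level in these pigs enters both calls. The call of PSMB1 at 1 year against 1 week was lost when any of pigs 9188, 9192, 9193, 9237, 9481, 9485 and 9487 was left out, with an adjusted p of up to 0.111 (limma). The PSMD8 call was lost without pig 9481 (adjusted p = 0.0741), and that of PSMB5 without pig 9481, 9483 or 9487 (adjusted p up to 0.0511).

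**Figure D4:**
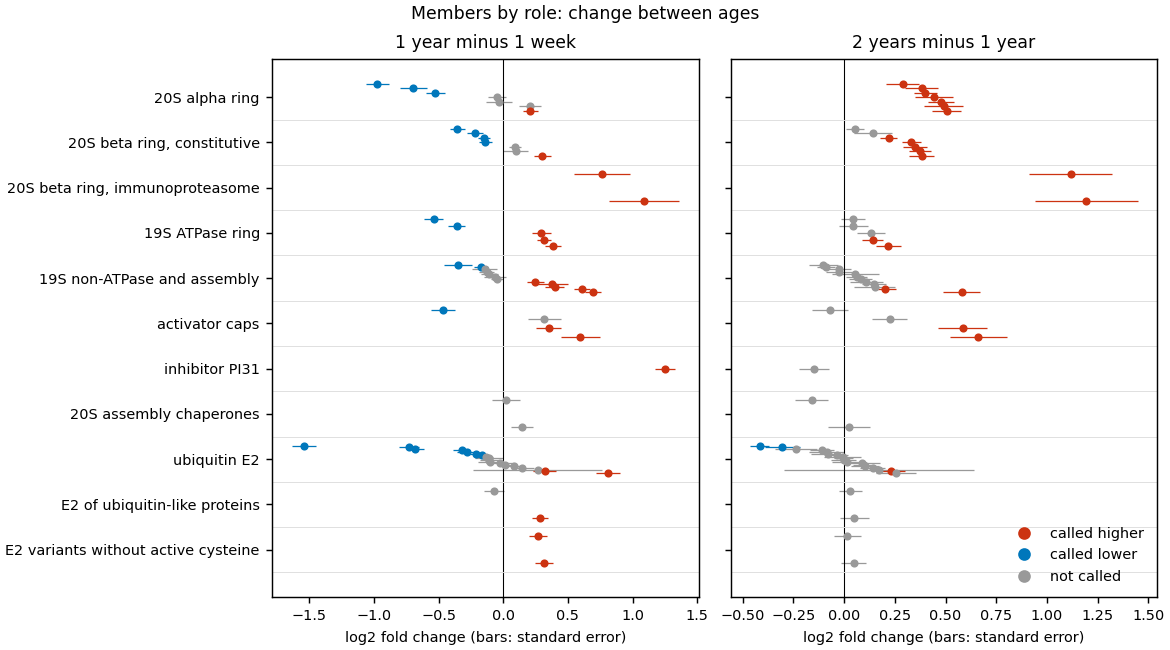
Points are members, grouped by role, with the log2 fold change between ages and its standard error as a bar; red marks members called higher, blue lower and grey not called. In the left panel (1 year minus 1 week) most roles hold members on both sides of 0, and in the right panel (2 years minus 1 year) the called members of the core, the 19S cap and the activators all lie above 0; the panels have different horizontal scales.

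The ATPase ring of the 19S cap, of which 5 genes were measured, showed both directions from 1 week to 1 year. PSMC1, PSMC3 and PSMC5 rose by 0.31, 0.29 and 0.38, while PSMC2 and PSMC6 fell by 0.36 and 0.54. Of all probe sets 24.7% were higher and 20.2% lower in that step. PSMC5 lay between 11.03 and 11.24 at 1 week and between 11.39 and 11.60 at 1 year (limma, adjusted p = 0.00018). PSMC6 lay between 10.80 and 11.03 at 1 week and between 10.26 and 10.57 at 1 year (limma, adjusted p = 3.05e-05). From 1 year to 2 years PSMC2 rose by 0.22 and PSMC1 by 0.14, where 12.9% of all probe sets were higher. The PSMC2 rise rests on 1 of its 3 probe sets, since the others stood at -0.06 and -0.0014 and were not called, and the PSMC1 call was lost in 11 of the 15 fits that each left out 1 pig (pigs 9006, 9176, 9188, 9192, 9193, 9237, 9483, 9485, 9994, 9995 and 9997, adjusted p up to 0.0969, limma).

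Among the 12 measured genes of the 19S non-ATPase and assembly role 5 rose and 2 fell from 1 week to 1 year. Those that fell were PSMD5 (-0.35) and PSMD8 (-0.17). Of all probe sets 24.7% were higher and 20.2% lower in that step. The ubiquitin receptor PSMD4 had pig means of 9.93, 9.72, 9.94 and 9.95 at 1 week, 10.49 to 10.68 at 1 year (median 10.59) and 10.80, 10.75, 10.65, 10.77 and 10.65 at 2 years. All older pigs lay above all piglets, with log2 fold changes of 0.69 ± 0.06 at 1 year and 0.84 ± 0.06 at 2 years against 1 week (limma, adjusted p = 4.68e-07 and 8.87e-08). The lid subunit PSMD3 rose by 0.61 ± 0.06 at 1 year (limma, adjusted p = 1.72e-06). The call of the base scaffold PSMD1, at 0.38 ± 0.12, was lost without pig 9485 or pig 9487 (limma, adjusted p up to 0.0786). A second PSMD1 probe set was not called in that comparison (0.12, limma, adjusted p = 0.506). PSMD14, which cuts ubiquitin chains off the substrate, stood at 9.62 to 9.96 at 1 week, 9.38 to 9.84 at 1 year and 10.14, 10.11, 10.12, 10.22 and 10.46 at 2 years. Of the steps between neighbouring ages the later one was called for PSMD14 (0.58 ± 0.09, limma, adjusted p = 0.000433), and no 2-year pig overlapped either younger group. The assembly chaperones PSMG1 and PSMG3 were called in no comparison (log2 fold changes between ages of -0.16 to 0.14).

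Over the whole span from 1 week to 2 years 28 members were higher, against 24.1% of all probe sets, and 11 lower, against 25.8%, with 50% called in either direction. Of the named genes 30.9% were higher, 23.9% lower and 54.7% called in either direction. In 24 members every 2-year pig lay above every piglet, against 17.7% of all probe sets, and in 9 below, against 20.2%. Brachial arrays alone gave 27 higher and 8 lower, against 20.2% and 22%, and femoral arrays alone 21 and 12, against 20.7% and 22.1%. PSMB8 was 4.87-fold and PSMB10 3.68-fold higher (log2 2.28 ± 0.28 and 1.88 ± 0.23, limma, adjusted p = 9.8e-06 and 8.68e-06), with log2 values of 1.44 and 1.21 without the 3 pigs. PSME1 was 2.39-fold and PSME2 1.87-fold higher. Without the 3 pigs 22 members were higher, against 23.7% of all probe sets, and 10 lower, against 22.4%. PSMA1, PSMA6, PSMB4, PSMB5 and PSMB6 were called in neither direction over the whole span, having fallen in the first step. The calls of PSME3 (0.28 ± 0.10) and PSME4 (-0.24 ± 0.10) were near the threshold, at adjusted p = 0.0272 and 0.0496 (limma). PSME3 lost its call without pig 9485, 9487, 9994 or 9995 (adjusted p up to 0.1), and PSME4 without any of pigs 9006, 9007, 9175, 9176, 9188, 9193, 9481, 9483, 9487, 9994 and 9995 (adjusted p up to 0.19).

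Among the E2s UBE2T, which works with the Fanconi anaemia E3 in DNA crosslink repair, had the largest difference. It stood at 9.51, 9.19, 9.39 and 9.61 in the piglets, 7.78 to 8.0 at 1 year (median 7.87) and 7.70, 7.94, 8.05, 8.01 and 8.17 at 2 years. The piglets lay above all older pigs, and UBE2T fell by 1.54 ± 0.09 from 1 week to 1 year on the log2 scale (limma, adjusted p = 7.43e-09). Of 22 measured cell cycle genes 19 were lower at 1 year than at 1 week, against 20.2% of all probe sets. Their median was -2.01, with CCNB1 at -4.54 and CKS2 at -4.11. The mean of that list was 9.02 to 9.29 in the piglets and 7.06 to 7.32 at 1 year, and its part in the UBE2T level was not tested.

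UBE2E3 and UBE2W fell alongside UBE2T, and all probe sets of these 3 genes were called lower at 1 year than at 1 week. UBE2E3, an E2 whose import into the nucleus depends on its ubiquitin load, went from 10.82 to 11.09 at 1 week to 10.06 to 10.38 at 1 year (-0.73 ± 0.08, limma, adjusted p = 2.41e-06). UBE2W, which attaches ubiquitin to the amino terminus of substrates, went from 7.85 to 8.09 to 7.21 to 7.49 (-0.68 ± 0.07, adjusted p = 1.02e-06). From 1 year to 2 years they differed by 0.01 ± 0.07 and -0.002 ± 0.061 and were not called (limma, adjusted p = 0.909 and 0.984), although 1 of the other UBE2E3 probe sets was higher (0.27, adjusted p = 0.0035). UBE2G2, which serves degradation of proteins from the endoplasmic reticulum, rose from 9.23, 9.07, 9.19 and 9.20 at 1 week to 9.93 to 10.04 at 1 year (0.81 ± 0.09, limma, adjusted p = 5.22e-06). At 2 years UBE2G2 was spread from 9.56 in pig 9997 to 10.23 in pig 9006, all above the piglets.

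UBE2O, a large enzyme that acts as E2 and E3 and clears ribosomal proteins in maturing red cells, was the member that fell in both steps. Its pig means were 9.45, 9.43, 9.51 and 9.47 at 1 week, 9.22 to 9.34 at 1 year and 8.85, 8.96, 8.95, 8.78 and 8.87 at 2 years, with no overlap between any ages. It fell by 0.16 ± 0.05 and then by 0.42 ± 0.05 (limma, adjusted p = 0.0134 and 4.96e-05), and by 0.39 in the second step without the 3 pigs. A second, dimmer UBE2O probe set was called higher at 1 year than at 1 week (0.22) and was not called for 2 years against 1 year (-0.10), so the fall rests on 1 of its 2 probe sets. UBE2R2, a partner of cullin E3s, fell from 9.34 to 9.54 at 1 year to 9.33, 9.25, 9.05, 9.29 and 8.87 at 2 years (-0.30 ± 0.09, limma, adjusted p = 0.014). The UBE2R2 call was lost without the 3 pigs (-0.17). UBE2N, which builds lysine 63 chains, rose by 0.23 ± 0.07 from 1 year to 2 years (limma, adjusted p = 0.0226), a call lost without pig 9995 or pig 9997 (adjusted p up to 0.0592).

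The E2 variants UBE2V1 and UBE2V2, which lack the active cysteine and pair with UBE2N, were each higher at 1 year than at 1 week (0.27 ± 0.07 and 0.31 ± 0.07, limma, adjusted p = 0.00423 and 0.00207). UBE2V1 had 3 probe sets, of which 2 were called higher and 1 lower (-0.37 to 0.64), so its direction depends on the probe set. UBE2M, the E2 of the ubiquitin-like protein NEDD8, rose by 0.29 ± 0.06 from 1 week to 1 year (adjusted p = 0.00122), while its relative UBE2F was not called (-0.07 ± 0.08).

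UBE2J2, an E2 anchored in the endoplasmic reticulum, differed between pigs rather than between ages and was singled out after its values were seen. Pig 9193 of 1 year had a level of 12.39 in the brachial and 12.55 in the femoral artery. Pig 9006 had 11.41 and 11.84, and pig 9995 had 11.74 and 11.41. The 24 arrays of the other 12 pigs lay between 9.71 and 10.46. Both arteries of a pig therefore gave the same high or low level, the 3 high pigs came from both older ages, and only 1 of them had high lymphocyte markers. No age comparison of UBE2J2 was called (2 years against 1 year 0.17 ± 0.47, limma, adjusted p = 0.807).

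The study compared the arteries of the fore and hind limb, and in this comparison few members differed. Over all ages 3 members were higher in the femoral artery, against 6.57% of all probe sets, and 0 were lower, against 5.99% and 12.6% in either direction (limma with the pig as a block). For the named genes the shares were 7.95% higher, 5.02% lower and 13.0% in either direction. At an unadjusted p under 0.05, 10 members were higher and 1 lower, and limma with an intensity trend called 1 lower. UBE2O was 0.20 ± 0.05 higher in the femoral artery (adjusted p = 0.00985, higher in 13 of 15 pigs), PSMA4 0.13 ± 0.04 (adjusted p = 0.0393, 13 of 15 pigs) and PSMA7 0.13 ± 0.04 (adjusted p = 0.0199, 14 of 15 pigs). These differences were 1.15-fold or less. UBE2O in the femoral artery ran from 8.81 to 9.60 and in the brachial from 8.63 to 9.52, so the arteries overlapped when all ages were pooled. A second UBE2O probe set was not called (0.06, adjusted p = 0.377). Probe sets not chosen to stand for their gene also gave calls in the other direction, as both remaining UBE2E3 probe sets (-0.21 and -0.20, adjusted p = 0.0016 and 0.0145) and the second of UBE2A (-0.17, adjusted p = 0.0124) were lower in the femoral artery, whereas the brightest of each gene was not called (-0.14 and -0.06). The PSMA4 call was lost when any of pigs 9007, 9175, 9176, 9192, 9237, 9483, 9485, 9487, 9994 and 9995 was left out (adjusted p up to 0.0735).

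At 1 week 4 members were higher in the femoral artery, against 4.53% of all probe sets higher, 4.23% lower and 8.76% in either direction. PSMB8 had levels of 7.15, 6.89, 7.02 and 7.07 in the brachial and 7.78, 7.53, 7.25 and 7.26 in the femoral artery, and no femoral value overlapped the brachial ones (0.42 ± 0.13, limma, adjusted p = 0.049, higher in 4 of 4 piglets). PSMD4, PSMD1 and UBE2V1 differed by 0.33, 0.23 and 0.22, also in 4 of 4 piglets. The second PSMD1 probe set (0.086) and the other UBE2V1 probe sets (0.11 and 0.12) were not called (limma, adjusted p = 0.546, 0.71 and 0.455). Each of the 4 calls was lost in some fits that left out 1 pig, with an adjusted p of up to 0.224. PSMD1 and PSMD4 lost theirs without any 1 of the 4 piglets, PSMB8 without any of pigs 9006, 9175, 9176, 9188, 9192, 9193, 9237, 9995 and the 4 piglets, and UBE2V1 without any of 13 pigs, that is all but 9006 and 9481. None of the 4 kept its call with no pig block or in a fit to the piglets alone. Of 15 measured contractile smooth muscle markers 7 were also higher in the femoral artery of the piglets and 1 was lower (median 0.37). The part of these markers in the member differences was not tested.

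At 1 year UBE2O was the 1 member called, against 3.41% of all probe sets higher, 3.59% lower and 7.01% in either direction, with 9.05 to 9.28 in the brachial and 9.32 to 9.55 in the femoral artery (0.28 ± 0.07, limma, adjusted p = 0.0281, higher in 6 of 6 pigs). That call was lost without pig 9176, 9188, 9193 or 9237 (adjusted p up to 0.117). At 2 years 0 members were called by limma, with 4 at an unadjusted p under 0.05. Of all probe sets 4.48% were higher, 3.50% lower and 7.98% called in either direction. At that age 10 of 12 measured macrophage and monocyte markers were higher in the femoral artery and 0 lower (median 0.83). The test of whether the artery difference changed with age also called 0 members, against 4.06% of all probe sets, with 6 at an unadjusted p under 0.05. The lowest adjusted p was 0.0721 for UBE2G2, which was higher in the femoral artery in 4 of 4 piglets (by 0.24 to 0.32) and lower in 4 of 6 pigs at 1 year and 4 of 5 at 2 years.

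**Figure D5:**
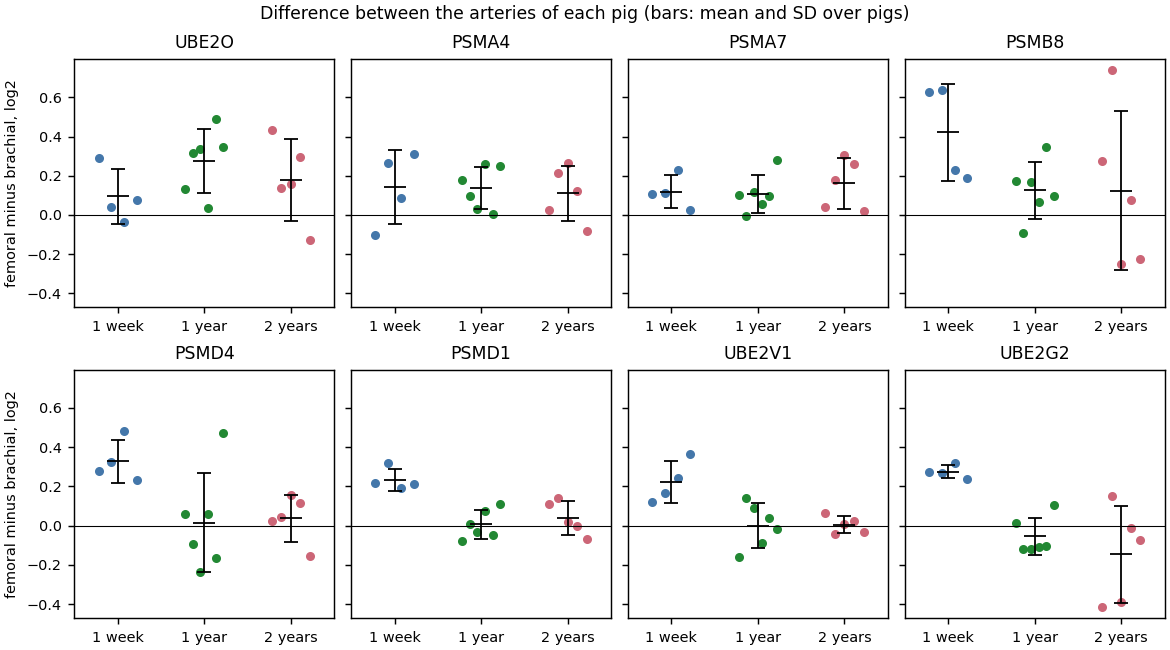
Points are the femoral minus brachial log2 signal of each pig, by age, with bars for mean and SD over pigs and a line at 0. UBE2O, PSMA4 and PSMA7 lie above 0 in 13, 13 and 14 of 15 pigs, while PSMB8, PSMD4, PSMD1, UBE2V1 and UBE2G2 are above 0 in all 4 piglets and on both sides of 0 in older pigs.

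Other genes of the pathway were read from lists. Of 20 measured genes of antigen processing 14 were higher at 1 year than at 1 week, against 24.7% of all probe sets. At 2 years 9 were higher than at 1 year, against 12.9%. SLA-DRA, an MHC class II chain, had pig means of 7.15 to 7.53 at 1 week, 10.39 to 11.29 at 1 year and 10.57, 10.92, 12.83, 12.67 and 12.88 at 2 years, so the same 3 pigs were high. The peptide transporter TAP1, whose gene lies next to PSMB8 in RefSeq's order of protein-coding genes, was at 7.72 to 8.09 at 1 week and 7.82 to 8.55 at 1 year. TAP1 was at 7.96, 7.80, 9.48, 9.46 and 9.56 at 2 years and was not called for 1 year against 1 week (0.28 ± 0.32) or 2 years against 1 year (0.66 ± 0.30, limma, adjusted p = 0.104). The median of the 20 antigen processing genes between 1 year and 2 years was 0.49 with all pigs and -0.02 without the 3 pigs, where limma called 0 of them (0 higher and 1 lower at an unadjusted p under 0.05).

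Of 22 measured interferon response genes 14 were higher at 1 year than at 1 week, against 24.7% of all probe sets, and 6 at 2 years than at 1 year, against 12.9%. Without the 3 pigs limma called 0 of the 22 between 1 year and 2 years (median -0.08, with 0 higher and 2 lower at an unadjusted p under 0.05). ISG15, a ubiquitin-like protein, rose by 1.86 ± 0.29 from 1 week to 1 year (limma, adjusted p = 8.8e-05) and its artery difference changed with age (adjusted p = 0.00833). ISG15 was 1.21 ± 0.17 higher in the femoral artery at 1 year and 1.02 ± 0.18 at 2 years (adjusted p = 0.000143 and 0.00235), with -0.29 ± 0.21 in the piglets (adjusted p = 0.455). USP18, which removes ISG15, was 0.73 ± 0.09 higher in the femoral artery over all ages (adjusted p = 2.87e-05) and was called at each age. Of 5 E1 genes 4 rose from 1 week to 1 year, of 29 cullin and RING E3 genes 15 rose and 5 fell, and of 21 deubiquitinases 9 rose and 3 fell. Of all probe sets 24.7% were higher and 20.2% lower in that step. The shuttle SQSTM1, which carries ubiquitinated cargo to autophagy, rose by 1.04 ± 0.05 (limma, adjusted p = 9.78e-10). From 1 year to 2 years, against 12.9% of all probe sets higher and 19.8% lower, 3 E3 genes rose and 5 fell, and 2 deubiquitinases rose and 7 fell. Without the 3 pigs 3 E3 genes were higher and 1 lower, and 2 deubiquitinases were higher and 3 lower, against 6.76% and 9.85% of all probe sets.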

How the data were processed

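The deposited table held log2 values of 19459 probe sets on 30 arrays. Tools listed in the submitters' processing notes are RMA, GCOS 1.4 and R 2.3.1, with no roles given. A range of 2.65 to 15.1 marks the deposited values as log2. After 97 control probe sets were left out, 19362 were tested, dim ones included. Symbols came from the array's annotation, which gave 8541 probe sets 1 symbol and 165 more than 1, and left 10656 unnamed. A member was called at a Benjamini-Hochberg adjusted p under 0.05 over all 19362 (limma 3.58.1, R 4.3.3, two-sided). Arteries were compared with the pig as a fixed block, and the artery by age test had 2 degrees of freedom. Ages were compared on the mean of both arteries of a pig, with the pig as the replicate. That the arrays of a pig belong together follows from the pig number in the labels, and after subtraction of group means the arteries of a pig correlated at 0.114 to 0.877. The fits were tested on simulated data. The number of arrays limits the precision.

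The members and gene lists were chosen with earlier results of these data known. Named members were the catalytic subunits, the activators and PSMF1, and, in each comparison and direction, up to 5 called members by size of log2 fold change. Of each list up to 2 called genes in each direction were named, and in each role the members with the highest and lowest mean were given as levels. TAP1, UBE2J2 and other members that describe their role were added after values were seen. Alternatives were another normalization, a filter, another variance model, the mean over probe sets, other treatments of the pig, the number in the sample title as a covariate, single arteries, and fits without each pig or without pigs 9994, 9995 and 9997. RefSeq names and gene order were from Sscrofa11.1, and no sequence was used here. Python 3.11.15 with matplotlib 3.10.9, pandas 2.3.3 and numpy 2.4.6 drew the figures.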

Additional observations from a re-analysis of the deposited data

Results flagged for a closer look

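On 3 arrays a member stood outside the other pigs of their group in 144 checks (24 members in 6 groups), where chance alone flags about 1 in 20. PSMA4 in the femoral artery of piglet 9485 was 10.31, below 10.38 to 10.39 in the other 3 piglets. PSMD4 in the brachial artery of pig 9237 at 1 year was 10.26, below 10.58 to 10.71 in the other 5 pigs. UBE2T in the femoral artery of pig 9192 at 1 year was 7.63, below 7.82 to 7.88 in the other 5 pigs.

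PSMD6, a subunit of the 19S lid, differed in direction between ages. It was higher in the femoral than in the brachial artery in every piglet (mean 0.082) and lower in every 2-year pig (mean -0.07). The difference itself was tested by the artery by age F test and was not called (limma, adjusted p = 0.615).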

How the results depend on the processing

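Of the named members' results under the alternatives 401 kept their call and direction and 52 kept the direction and lost the call. Of the fits that left out 1 pig, this tally holds only those with the lowest and the highest log2 fold change for each result. In every such fit 35 of 39 called members kept their call at 1 year against 1 week. At 2 years against 1 week 34 of 39 did, and at 2 years against 1 year 21 of 23. For the artery over all ages 2 of 3 did, at 1 week 0 of 4 and at 1 year 0 of 1. The members' median for 1 year against 1 week, -0.03, changed sign with the mean over probe sets (0.024) and in brachial (0.0049) and femoral arrays alone (0.0018), where femoral arrays gave more members lower (17) than higher (13). In the artery comparison over all ages (3 higher, 0 lower) a filter on the lowest 50% of probe sets gave 5 and 1, the pig as a random replicate block 5 and 1, the title number as a covariate 1 higher, an intensity trend 1 lower, the mean over probe sets 2 lower, and leaving out pigs 9994, 9995 and 9997 1 lower. At 1 week (4 called) the filter gave 8, no replicate block, the title number and a fit to that age alone each 0, and leaving out the 3 pigs 2. The pairing by pig changed no other count by more than 1.5 times. At 1 year (1 called) the title number gave 0, and the filter gave 1 for artery by age (0 called). For 2 years against 1 year the 3 pigs' absence gave 13 higher and 1 lower, and brachial arrays alone 1 lower (21 and 2 called). Without the 3 pigs PSMB8 minus PSMB5 was 1.52 for 2 years against 1 week and 0.28 for 2 years against 1 year, and PSMB10 minus PSMB7 was 0.92 and 0.25. The setting without the 3 pigs was chosen after seeing the data, and the causes were not tested.

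Leaving out each pig in turn gave 2 to 6 higher and 0 to 1 lower for the artery over all ages, 0 to 4 at 1 week, 0 to 1 at 1 year and 0 to 1 for artery by age. PSMB10 minus PSMB7 between the arteries ran from -0.11 to -0.046 and was called without pig 9994 (-0.11, exact permutation test, adjusted p = 0.0414).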

Other observations

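Of 27 measured chaperone genes 9 were higher and 6 lower at 1 year than at 1 week, against 24.7% and 20.2% of all probe sets, with FKBP4 at 1.00 ± 0.08 and DNAJA1 at -0.67 ± 0.16 (limma, adjusted p = 2.95e-07 and 0.00263). At 2 years against 1 year 4 were higher and 3 lower, against 12.9% and 19.8% of all probe sets, with HSPE1 at 0.54 ± 0.09 and HSPA4 at -0.45 ± 0.14 (adjusted p = 0.00045 and 0.0255). Without pigs 9994, 9995 and 9997 that count was 1 higher, HSPE1 (0.49 ± 0.09, adjusted p = 0.00484), and HSPA4 was not called (-0.39 ± 0.13, adjusted p = 0.0549). Between the arteries 3 were lower in the femoral artery, against 5.99% of all probe sets, among them HSPA8, the constitutive HSP70, at -0.35 ± 0.08 (adjusted p = 0.00584).

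Of 9 measured factors that regulate or assemble the proteasome, 7 were higher and 1 lower at 1 year than at 1 week, against 24.7% and 20.2% of all probe sets. AKIRIN2, which carries proteasomes into the nucleus, rose by 0.52 ± 0.10 (limma, adjusted p = 0.000696) and again by 0.30 ± 0.09 from 1 year to 2 years (adjusted p = 0.0256). SEM1, a small subunit of the 19S lid outside the symbol rule, rose by 0.22 ± 0.07 in the second step (adjusted p = 0.0345). ZFAND5, a proteasome activator in muscle, fell by 0.44 ± 0.07 in that step (adjusted p = 0.000648). Without the 3 pigs SEM1 and ZFAND5 kept their calls in that step (0.31 and -0.39, adjusted p = 0.0346 and 0.0174) and AKIRIN2 did not (0.15 ± 0.12, adjusted p = 0.422). The E3 ligase RNF128 was 1.11 ± 0.20 higher in the femoral artery over all ages (adjusted p = 0.000963) and CBLB was 0.40 lower (log2 -0.40 ± 0.06, adjusted p = 0.000154).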
